A study of Mus musculus with 60 samples.

Results

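The 9 transcripts described here encode the renal machinery of vitamin D and calcium handling. They were chosen by name and matched to the Ensembl rows of the count files through GENCODE symbols, as 9 of 55335 genes, and all 9 passed the filter on low values that retained 15546 genes. Cyp27b1 and Cyp24a1 are the enzymes that make and inactivate calcitriol. Vdr is its nuclear receptor. Lrp2 (megalin) and Cubn (cubilin) are endocytic receptors of the proximal tubule. Trpv5, Calb1, and S100g carry calcium across distal tubule cells, and Casr is the calcium-sensing receptor.

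In the kidney, the vitamin D precursor calcidiol is filtered together with its binding protein and is taken up from the tubular fluid by megalin and cubilin. Proximal tubule cells convert it to calcitriol, and calcitriol acting through its receptor induces the inactivating enzyme in a feedback loop. In the distal convoluted and connecting tubules, calcium enters through the apical channel TRPV5, is buffered in the cytosol by calbindins, and leaves across the basolateral membrane through the exchanger NCX1 and calcium pumps. In the thick ascending limb, calcium moves between the cells, and the calcium-sensing receptor restrains this route.

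Kidneys were obtained from 60 male mice on a 12 h light/12 h dark cycle with food at will, 5 of each genotype at ZT0, ZT4, ZT8, ZT12, ZT16, and ZT20 (zeitgeber time, hours after lights on). The cKOt mice carried Bmal1 lox/lox, Pax8-rtTA, and LC1-Cre, so that doxycycline switches on Cre in tubule cells, where the Pax8 promoter is active. Control mice were Bmal1 lox/lox littermates without this pair of transgenes, so the genotypes differ in transgenes as well as in Bmal1. Both received doxycycline (2 mg/ml in drinking water with 20 mg/ml sucrose) for 2 weeks from 8 weeks of age and were killed 4 weeks later. The labels name the tissue as renal tubule, whereas the study's methods describe frozen pieces of whole kidney, and the summed podocyte markers (252 to 369 CPM (control) and 261 to 350.1 CPM (cKOt)) and endothelial markers (369.8 to 453 CPM (control) and 336 to 451 CPM (cKOt)) show that other kidney cells were sampled. Differences in such bulk tissue cannot tell fewer cells of a type from less RNA per cell.

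Each library held 17791420 to 20906706 counts on genes. Levels are given as CPM, counts scaled to a common depth with TMM library sizes. The transcript of the targeted gene, Arntl (Bmal1), ranged from 2.73 ± 0.825 CPM at ZT8 to 48.4 ± 10.2 CPM at ZT0 in control mice and from 17.4 ± 2.01 CPM at ZT12 to 24.4 ± 1.56 CPM at ZT0 in cKOt mice. Counts cover the entire gene, so they give no direct check of the deleted part. Averaged over the time points on the log2 scale, the difference of cKOt minus control mice was 0.71 ± 0.091 (adjusted p = 2.22e-09, edgeR). Its direction changed with time, and the genotype by time interaction had an adjusted p of 4.86e-16. At ZT0 and ZT20 cKOt mice had less Arntl (at ZT20, 23.5 ± 1.42 CPM against 47.25 ± 3.78 CPM in control mice). At ZT4, ZT8, and ZT12 they had more (at ZT8, 18.5 ± 1.96 CPM against 2.73 ± 0.825 CPM), so the average does not mean a higher level throughout. The share of uniquely aligned reads outside annotated genes moved with genotype, at 7.17% to 9.15% of each control library and 7.80% to 10.6% of each cKOt library, and its part in the genotype differences was not tested.

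Per kilobase of exon, the order of the levels ran over more than 2 orders of magnitude. In control mice the mean was 493 ± 71.2 CPM per kb for S100g, 208 ± 22.1 for Lrp2, 74.5 ± 11.8 for Calb1, 57.0 ± 7.28 for Vdr, 49.2 ± 6.34 for Cubn, 24.2 ± 19.4 for Cyp24a1, 12.1 ± 1.78 for Casr, 5.69 ± 0.706 for Trpv5, and 1.99 ± 1.24 for Cyp27b1 (SD, n = 30 mice). S100g, Lrp2, and Calb1 did not overlap with one another in either genotype. Calb1 and Vdr overlapped, with Calb1 the higher in 27 of 30 control mice and 28 of 30 cKOt mice. The ranges of Vdr and Cubn overlapped, with Vdr the higher in 23 of 30 control mice and 29 of 30 cKOt mice. Cyp24a1 and Casr could not be ordered, because Cyp24a1 was above Casr in 21 of 30 control mice and 14 of 30 cKOt mice. Cyp27b1 was the lowest in depth as well, at 11 to 224 counts per library, and so has the largest relative counting error of the set.

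The DNA before the transcription start is shown for Cyp27b1, Vdr, Trpv5, and S100g, because the deleted factor binds E-boxes. Vdr and Cyp27b1 had the smallest p-values for a genotype difference that varied between time points. Of these only Vdr passed (adjusted p = 0.0208, and 0.147 for Cyp27b1, edgeR interaction test). Trpv5 and S100g are a pair of distal calcium genes that were higher in cKOt mice. The windows are from RefSeq on GRCm38.p6, run 5′ to 3′ on the strand of the gene, and cover up to 250 bases before the start, with bases in annotated exons left out. Cyp27b1 is on the plus strand at chr10:127047996-127048245, and Vdr (chr15:97908311-97908546), Trpv5 (chr6:41680770-41680973), and S100g (chrX:162964600-162964849) are on the minus strand. The Vdr window lies inside the GENCODE gene, whose upstream end is at base 97910630, so the DNA before that end was not searched. Capitals mark matches to the motifs searched.
Cyp27b1: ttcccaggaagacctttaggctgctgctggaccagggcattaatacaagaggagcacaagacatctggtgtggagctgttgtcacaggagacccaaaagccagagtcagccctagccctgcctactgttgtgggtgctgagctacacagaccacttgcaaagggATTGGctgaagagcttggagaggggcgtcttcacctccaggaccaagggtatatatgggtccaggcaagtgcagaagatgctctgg
Vdr: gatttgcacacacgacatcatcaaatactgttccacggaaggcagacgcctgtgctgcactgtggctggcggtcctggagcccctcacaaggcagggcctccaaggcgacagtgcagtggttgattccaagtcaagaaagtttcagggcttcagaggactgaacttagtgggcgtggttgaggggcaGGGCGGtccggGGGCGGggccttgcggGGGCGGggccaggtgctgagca
Trpv5: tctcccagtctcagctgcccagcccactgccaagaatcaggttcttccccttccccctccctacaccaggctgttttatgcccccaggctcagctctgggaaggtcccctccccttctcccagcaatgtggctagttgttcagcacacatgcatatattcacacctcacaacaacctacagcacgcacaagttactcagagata
S100g: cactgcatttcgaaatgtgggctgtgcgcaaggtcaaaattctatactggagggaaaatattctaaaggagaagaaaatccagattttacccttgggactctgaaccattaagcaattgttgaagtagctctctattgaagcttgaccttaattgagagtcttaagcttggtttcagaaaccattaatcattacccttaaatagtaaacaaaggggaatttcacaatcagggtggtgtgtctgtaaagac
The capitals are a CCAAT box (CCAAT) before Cyp27b1 and 3 Sp1 boxes (GGGCGG) before Vdr. On both strands, the full 250 bases of the 7 members with an entry (Cyp27b1, Vdr, Trpv5, S100g, Lrp2, Cubn, and Casr) held no E-box (CACGTG), no CACGTT, no D-box (searched as TTATGTAA and as TTACGTAA), and no vitamin D response element of the DR3 type. Of 32851 promoter windows of this length, 6.02% held the E-box, 3.85% CACGTT, 0.931% a D-box, 0.0396% the response element, 32.7% the Sp1 box, and 33.8% the CCAAT box, and none of these matches overlapped one another in the members. The TATA box TATAAA, present in 12.4% of windows, was found before Trpv5, 43 to 38 bases before the start and within the bases left out above. These are matches of letters in a short window, and distant elements were not analysed here.

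The first comparison asked whether the log2 level, averaged over the time points of the day, differed between cKOt and control mice. Cyp27b1 (0.443-fold) and Cyp24a1 (0.678-fold) were lower in cKOt mice, whereas the distal calcium genes Trpv5 (1.40-fold), S100g (1.29-fold), and Calb1 (1.21-fold) were higher. Vdr and Casr were slightly higher and Lrp2 slightly lower, and Cubn did not pass the test. In all, 8 of the 9 transcripts passed the threshold of adjusted p under 0.05, 5 higher and 3 lower in cKOt mice, against 50.0% of all 15546 genes tested (26.8% higher and 23.2% lower), so that passing this test does not set the members apart. By size, the share of all genes with at least as large a log2 fold change in the same direction was 0.753% for Cyp27b1, 2.99% for Trpv5, 3.07% for Cyp24a1, 4.75% for S100g, and 8.20% for Calb1, but over 20% for Casr, Vdr, Lrp2, and Cubn. Within the 6 batches of the study's sample table, each holding both genotypes, the time-centred difference kept its direction in 6 of 6 for Cyp27b1 (-1.57 to -0.35), Cyp24a1 (-1.18 to -0.32), Trpv5, S100g, and Casr (0.013 to 0.20), in 5 for Vdr (-0.013 to 0.27), Calb1, and Lrp2 (-0.17 to 0.021), and in 4 for Cubn. The median log2 fold change was 0.12 over the 9 transcripts and 0.012 over all genes.

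**Figure D1:**
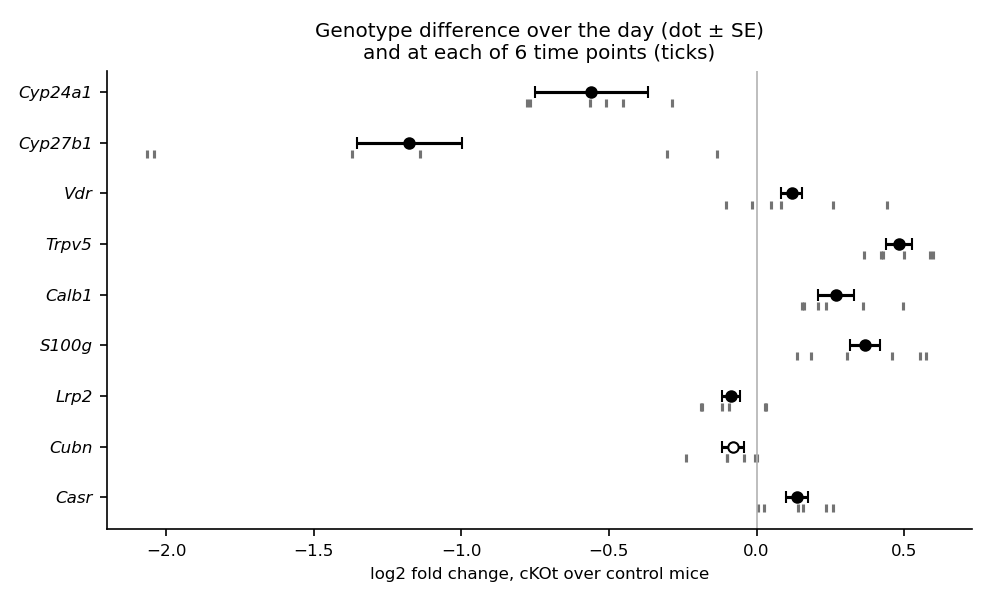
Log2 fold change of cKOt over control mice for the 9 transcripts, as the mean over the day (dot, ± SE; filled, adjusted p under 0.05; open, not called) and at each of the 6 time points (ticks). Cyp27b1 at -1.18 and Cyp24a1 at -0.56 lie to the left, Trpv5 at 0.48, S100g at 0.37, and Calb1 at 0.27 to the right, and the ticks of Cyp27b1 spread from -2.07 to -0.14.

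Over the day, Cyp27b1, the enzyme that makes calcitriol, was lower in cKOt mice by a log2 fold change of -1.18 ± 0.18 (SE; 0.443-fold, adjusted p = 1.71e-07, edgeR), and its group mean was lower at 6 of 6 time points. The estimates were largest at ZT4 and ZT8, although the interaction over the time points did not pass (adjusted p = 0.147, edgeR). At ZT4 the 5 control mice had 2.75, 3.57, 4.26, 6.09 and 9.12 CPM, and the 5 cKOt mice had 0.615, 0.656, 0.914, 1.55 and 1.59 CPM. At ZT8 control mice had 2.57, 4.98, 4.99, 5.99 and 6.59 CPM, and cKOt mice had 0.850, 0.889, 1.34, 1.40 and 1.47 CPM. The ranges did not overlap at these times, a separation shown in either direction by 11.1% of all genes at ZT4 and 9.49% at ZT8. The log2 fold change was -2.04 ± 0.48 at ZT4 (adjusted p = 0.00207) and -2.07 ± 0.46 at ZT8 (adjusted p = 5.46e-04).

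At ZT12, when control mice reached their highest mean of 8.84 ± 3.49 CPM (SD, n = 5), the single control mice had 3.43, 7.87, 9.17, 11.6 and 12.1 CPM. The cKOt mice at that time had 1.18, 2.87, 3.33, 3.38 and 6.52 CPM, and the ranges overlapped through 1 low control and 1 high cKOt mouse. The log2 fold change was -1.37 ± 0.39 at ZT12 (adjusted p = 0.00721) and -1.14 ± 0.41 at ZT16 (adjusted p = 0.0412). The call at ZT12 was lost without the mice numbered 4 (log2 fold change -1.16, adjusted p = 0.0643). The call at ZT16 was lost with the replicate block (adjusted p = 0.0607) and under 6 other alternatives. At ZT20 and ZT0 the genotypes were close, at 2.21 ± 1.08 CPM against 1.96 ± 0.944 CPM and 3.88 ± 2.47 CPM against 3.47 ± 1.59 CPM, and the log2 fold changes of -0.30 ± 0.47 (adjusted p = 0.740) and -0.14 ± 0.41 (adjusted p = 0.883) did not pass. The single control mice at ZT0 had 2.32, 2.42, 2.64, 3.87 and 8.15 CPM, with the highest far from the rest.

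Whether the difference in Cyp27b1 varied with the time of day depended on that mouse: the interaction had an adjusted p of 0.147 with all mice and 0.0248 without it, where the log2 fold change at ZT0 became 0.44. Time of day passed the test in control mice (adjusted p = 0.00439) and in cKOt mice (adjusted p = 0.00810). The highest group mean in control mice was at ZT12, 3.99-fold above the lowest one. In cKOt mice the means at ZT0 and ZT12 (3.46 ± 1.93 CPM) were the highest and did not differ beyond their spread. Neither call held without the mice numbered 1 or those numbered 5 (adjusted p = 0.0641 to 0.0835).

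Cyp24a1, the enzyme that inactivates calcitriol and a target of its receptor, was also lower in cKOt mice (log2 fold change -0.56 ± 0.19, 0.678-fold, adjusted p = 0.0129) and had a lower group mean at 6 of 6 time points. Its highest group mean was 4.22-fold above its lowest in control mice and 4.47-fold in cKOt mice, the largest ratios among the 9 transcripts. In control mice the mean rose from 53.1 ± 54.2 CPM at ZT0 to 189.8 ± 73.3 CPM at ZT8 and was 45 ± 12.9 CPM at ZT12. In cKOt mice it was 31.4 ± 18.5 CPM, 139 ± 102 CPM, and 31.0 ± 23.3 CPM at these times. Time of day passed in control mice (adjusted p = 1.93e-04) and in cKOt mice (adjusted p = 3.51e-05), and the interaction did not (adjusted p = 0.993).

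The values of Cyp24a1 varied widely between mice of a group. At ZT8 control mice had 122, 122, 188, 220.4 and 297 CPM, and cKOt mice had 70.8, 83.3, 96.7, 126 and 318 CPM. At ZT12 control mice had 26.8, 42.7, 45, 47.5 and 62.8 CPM, and cKOt mice had 5.97, 18.8, 20.6, 46.6 and 63.3 CPM. The ranges of the genotypes overlapped at every time point, none of the 6 single-time differences passed edgeR's test (adjusted p = 0.321 to 0.772, and 0 of 6 at an unadjusted p under 0.05), and the call over the day was lost without the mice numbered 1 (log2 fold change -0.45, adjusted p = 0.0755) or 5 (-0.41, adjusted p = 0.106). Of the exon bases of Cyp24a1, 2.33% are shared with Pfdn4 on the opposite strand.

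Vdr, the calcitriol receptor, was the only member to pass the test of whether the genotype difference varied with time of day (interaction, adjusted p = 0.0208), as did 3.08% of all genes. The difference was largest at ZT12, the time of the lowest mean in control mice. At ZT12 control mice had 250.2, 261, 266, 276 and 283 CPM, and cKOt mice had 288, 350.1, 368, 387 and 401 CPM. Every cKOt mouse was above every control mouse, by a narrow margin for the lowest, a separation shown in either direction by 9.73% of all genes. The log2 fold change was 0.44 ± 0.085 (adjusted p = 5.52e-05). It was 0.26 ± 0.089 at ZT4 (adjusted p = 0.0435), a call that was lost under 9 of 19 alternatives.

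At the other time points the log2 fold changes of Vdr were small and did not pass: 0.049 ± 0.084 at ZT0, 0.081 ± 0.085 at ZT8, -0.014 ± 0.085 at ZT16, and -0.10 ± 0.086 at ZT20. Over the day Vdr was 0.12 ± 0.035 higher on the log2 scale (adjusted p = 0.00345). Time of day passed in control mice (adjusted p = 4.79e-04), whose means ran from 267 ± 12.8 CPM at ZT12 to 372 ± 8.92 CPM at ZT8, and in cKOt mice (adjusted p = 7.70e-04), whose means ran from 309 ± 34.5 CPM at ZT20 to 401 ± 55.4 CPM at ZT8. The interaction did not pass without RUVs factors (adjusted p = 0.0865), without the mice numbered 1, 2, 3, or 4 (0.0643 to 0.191), or without 1 cKOt mouse at ZT12 (replicate 3; 0.0735).

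**Figure D2:**
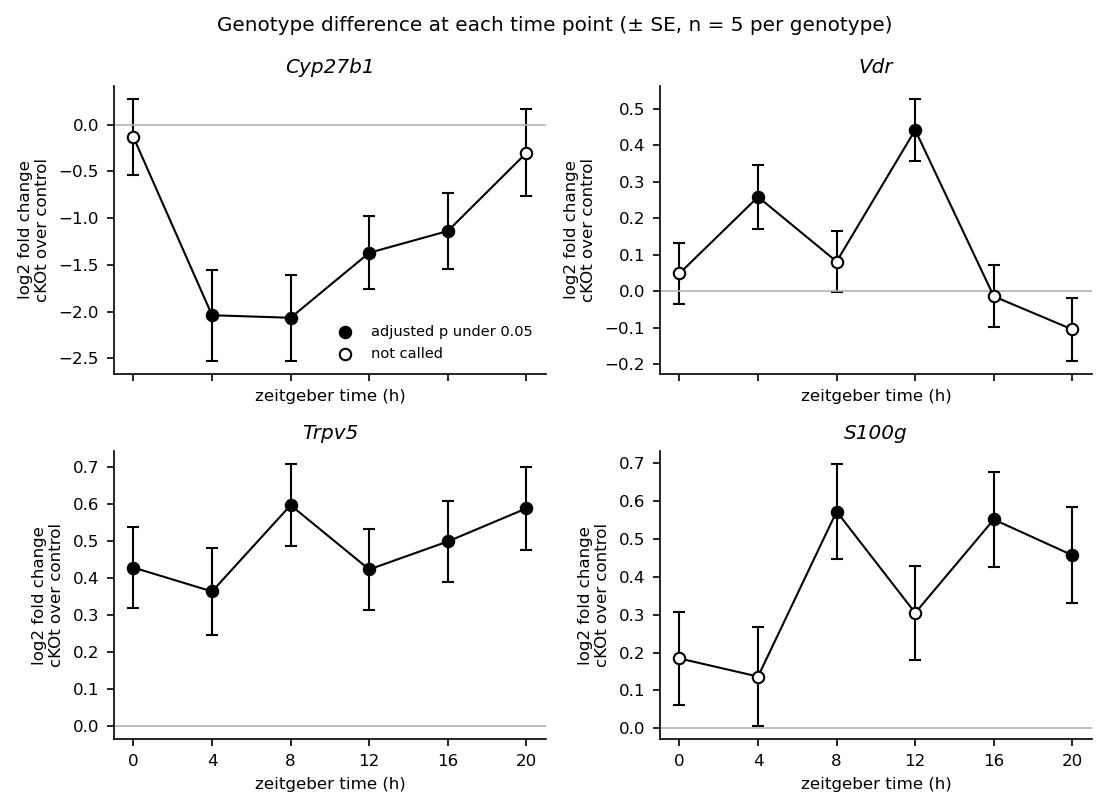
Log2 fold change of cKOt over control mice (± SE, 5 mice of each genotype) against zeitgeber time in hours for Cyp27b1, Vdr, Trpv5, and S100g, with filled points for adjusted p under 0.05. Cyp27b1 reached -2.04 at ZT4 and -2.07 at ZT8, Vdr peaked at 0.44 at ZT12, and Trpv5 lay between 0.36 and 0.60 at all 6 time points.

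The endocytic receptors of the proximal tubule differed little. Lrp2 (megalin), which takes up calcidiol with its binding protein, was -0.087 ± 0.031 on the log2 scale in cKOt mice (0.942-fold, adjusted p = 0.0170). Its 30 control mice ranged from 2930.3 to 4191 CPM (median 3397), and its 30 cKOt mice from 2621 to 3955 CPM (median 3208). Cubn (cubilin), the partner receptor, was -0.080 ± 0.038 (adjusted p = 0.0772), with 575 to 1086 CPM in control mice (median 731) and 564 to 874 CPM in cKOt mice (median 700.0). The genotypes overlapped at all 6 time points for both. The call of Lrp2 did not hold without RUVs factors (adjusted p = 0.0927) or without the mice numbered 1 (0.0939) or 3 (0.0582), and Cubn passed with DESeq2 size factors (0.0454) and without 1 control mouse at ZT4 (replicate 5; 0.0412). Time of day did not pass for Lrp2 (adjusted p = 0.156 in control and 0.425 in cKOt mice) or for Cubn (0.45 and 0.0525). Time of day for Cubn in cKOt mice passed under 5 alternatives (adjusted p = 0.0257 to 0.0457), which were the DESeq2 test, filterByExpr, no RUVs factors, the sample-table batch in their place, and leaving out control mouse 5 at ZT4.

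Trpv5, the apical calcium channel of the distal convoluted and connecting tubules, was higher in cKOt mice at every time point. Over the day its level was 18.4 ± 2.29 CPM in control mice and 25.9 ± 3.15 CPM in cKOt mice (SD, n = 30), which gave 0.48 ± 0.045 as log2 fold change (1.40-fold, adjusted p = 1.67e-13). At ZT8 control mice had 15.6, 17.4, 18.1, 19.5 and 21.9 CPM, and cKOt mice had 26.1, 26.4, 27.6, 28.7 and 30.2 CPM. At ZT16 control mice had 17.4, 17.4, 18.8, 18.9 and 19.6 CPM, and cKOt mice had 22.4, 23.7, 26.3, 28.3 and 29.0 CPM. Every cKOt mouse was above every control mouse at 5 of the 6 time points, a pattern at 5 or more time points that 1.27% of all genes showed. In either direction, ranges did not overlap for 7.30% of genes at ZT0, 9.73% at ZT12, 9.04% at ZT16, and 6.86% at ZT20.

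The exception was ZT4, where control mice had 12.0, 16.6, 17.7, 19.4 and 21.5 CPM and cKOt mice had 18.9, 21.8, 22.1, 24.2 and 28.1 CPM. The difference of Trpv5 passed at each time point, from 0.36 ± 0.12 at ZT4 (adjusted p = 0.0301) to 0.60 ± 0.11 at ZT8 (adjusted p = 3.42e-05), and at ZT4 it no longer did without the lowest control mouse (log2 fold change 0.25, adjusted p = 0.151) or without the mice numbered 1, 2, 4, or 5 (0.0656 to 0.290). The call of Trpv5 at ZT0 was lost without the mice numbered 5 (adjusted p = 0.0527), and that at ZT12 without those numbered 3 (0.0587). Neither the interaction (adjusted p = 0.866) nor time of day in control mice (0.567) or in cKOt mice (0.290) passed. Within the sample-table batches its difference ran from 0.38 to 0.61.

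S100g and Calb1, the calbindins that buffer calcium on its way through distal cells, were higher as well. S100g had 237 ± 34.2 CPM in control mice and 307 ± 48.7 CPM in cKOt mice (n = 30), which gave 0.37 ± 0.051 as log2 fold change (1.29-fold, adjusted p = 1.61e-08). At ZT16 control mice had 197, 206, 224, 233 and 242 CPM, and cKOt mice had 273, 275, 333, 347 and 366 CPM, with no overlap, as for 9.04% of all genes in either direction. S100g passed at ZT8 (0.57 ± 0.12, adjusted p = 4.13e-04), ZT16 (0.55 ± 0.12, adjusted p = 6.73e-04), and ZT20 (0.46 ± 0.13, adjusted p = 0.00873). It did not pass at ZT0 (0.18 ± 0.12), ZT4 (0.14 ± 0.13), or ZT12 (0.30 ± 0.12), and the interaction did not show that these times differ (adjusted p = 0.410). The call of S100g at ZT20 was lost without the mice numbered 4 (adjusted p = 0.0641) or 5 (0.0984), and the difference at ZT12 passed without those numbered 1 (0.0495) or 5 (0.0365).

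Calb1 had 361 ± 57.4 CPM in control mice and 439 ± 92.0 CPM in cKOt mice, which gave 0.27 ± 0.062 as log2 fold change (1.21-fold, adjusted p = 2.42e-04), with the higher group mean in cKOt mice at 6 of 6 time points. At ZT20 control mice had 272, 363, 378, 381 and 410.4 CPM, and cKOt mice had 363, 438, 487, 565 and 679 CPM. At that time 4 of 5 cKOt mice exceeded all control mice, and the log2 fold change of 0.50 ± 0.15 was the only single-time difference of Calb1 to pass (adjusted p = 0.0203). It did not pass with the sample-table batch in place of RUVs factors (adjusted p = 0.0769) or without the mice numbered 1, 4, or 5 (0.0586 to 0.215). Within batches the difference of Calb1 over the day ran from -0.039 to 0.41 and was positive in 5 of 6, whereas that of S100g ran from 0.15 to 0.54.

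Markers of the distal segments are given beside these genes, against 26.8% of all genes called higher and 23.2% called lower. Of 5 distal convoluted tubule markers, 4 were higher in cKOt mice and Pvalb was not (-0.0051 ± 0.073), with a median log2 fold change of 0.074 and a summed level of 1723 to 2251 CPM (control) and 1829 to 2472 CPM (cKOt). Of 6 connecting tubule and principal cell markers, 3 were higher (Scnn1b, Scnn1g, and Avpr2), Aqp3 was lower, and 2 did not pass, with a median of 0.095 and a summed level of 181 to 323 CPM (control) and 177 to 296 CPM (cKOt). The part of these shifts in the differences of Trpv5, S100g, and Calb1 was not tested.

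Casr, the calcium-sensing receptor of the thick ascending limb, was 0.14 ± 0.038 higher on the log2 scale in cKOt mice over the day (1.10-fold, adjusted p = 0.00237). Without the mice numbered 5 it was 0.089 and did not pass (adjusted p = 0.0838). At ZT8 control mice had 50.2, 53.8, 54.1, 55.4 and 56.0 CPM, and cKOt mice had 57.8, 59.5, 62.1, 70.0 and 81.1 CPM, without overlap, as for 9.49% of all genes in either direction. That difference of 0.26 ± 0.094 had an adjusted p of 0.0433 and was lost under 8 of 19 alternatives, among them leaving out 1 cKOt mouse of that time (replicate 2; adjusted p = 0.0665). Time of day passed in control mice (adjusted p = 0.0192), whose mean ran from 48.1 ± 2.35 CPM at ZT12 to 64.7 ± 5.88 CPM at ZT0, and not in cKOt mice (adjusted p = 0.71). The interaction did not show that the genotypes differ in this (adjusted p = 0.686), and the call in control mice did not hold without 1 control mouse at ZT0 (replicate 3; adjusted p = 0.0626) or without the mice numbered 1 (0.0978) or 3 (0.205). Of the markers of the thick ascending limb, 3 were higher (Slc12a1, Cldn16, Kcnj1) and 2 lower (Umod, Ppp1r1a), beside 26.8% higher and 23.2% lower over all genes. Their summed level was 2929 to 5804 CPM (control) and 3671 to 4973 CPM (cKOt), and their part in the level of Casr was not tested.

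At single time points, the members that passed were 1 of 9 at ZT0, 3 at ZT4, 4 at ZT8, 3 at ZT12, 3 at ZT16, and 3 at ZT20. The corresponding shares of all genes were 12.1%, 12.5%, 19.9%, 21.0%, 19.8%, and 13.8%. Time of day passed for 4 of 9 members in control mice (Cyp24a1, Cyp27b1, Vdr, and Casr), against 30.6% of all genes, and for 3 of 9 in cKOt mice (Cyp24a1, Cyp27b1, and Vdr), against 26.6%.

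**Figure D3:**
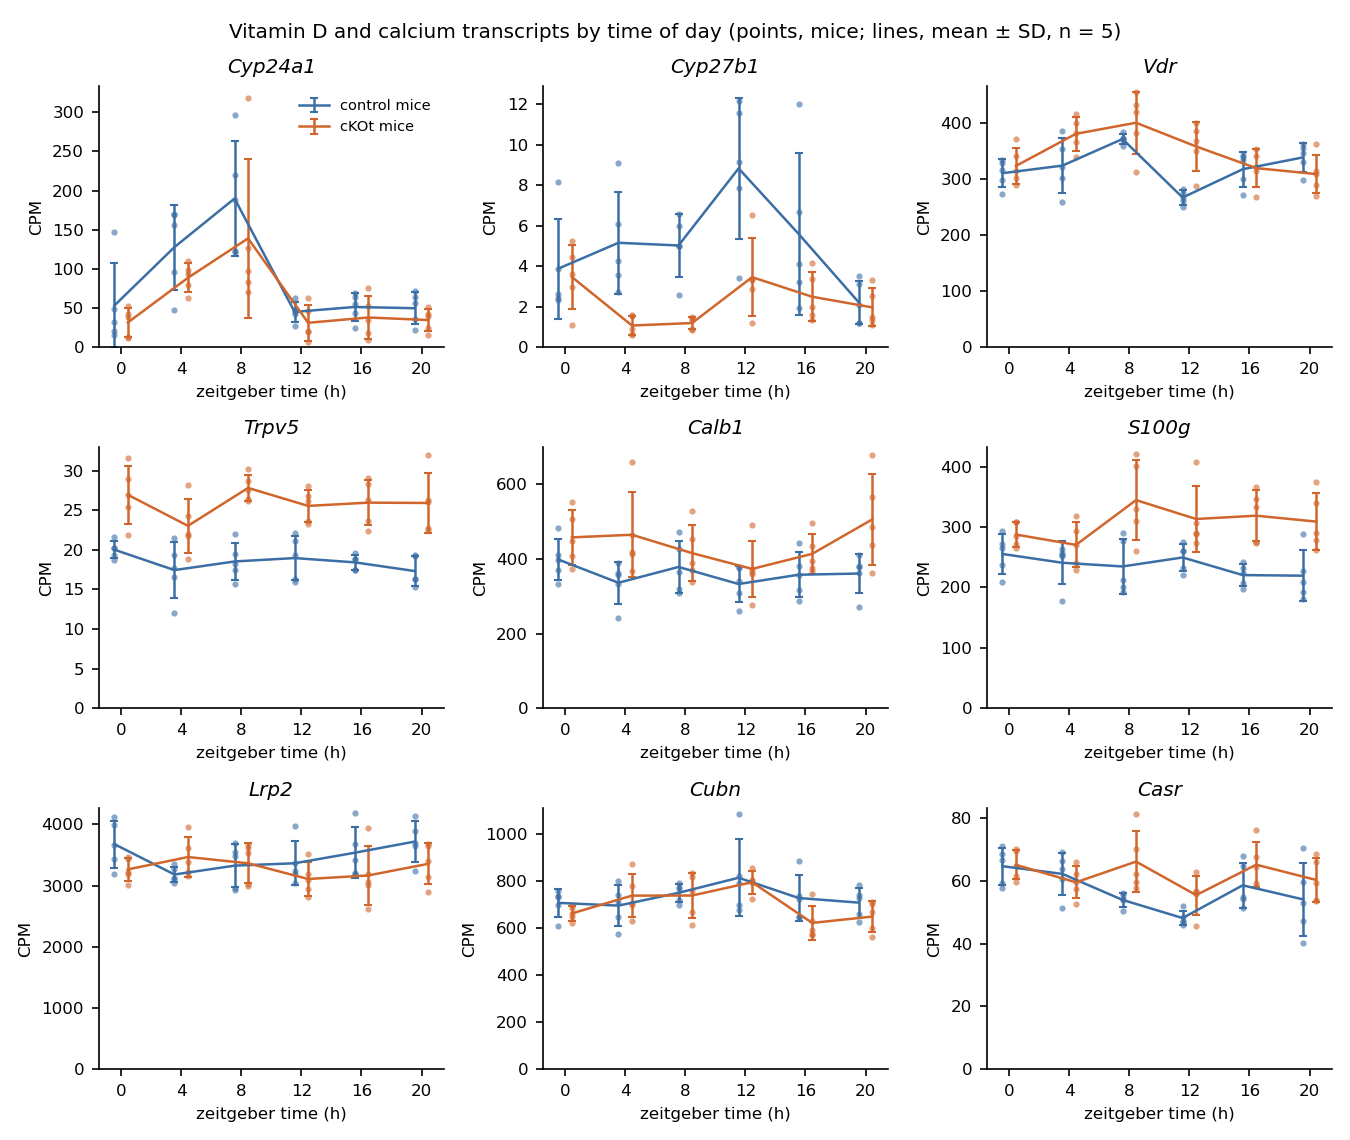
Levels in CPM against zeitgeber time in hours for the 9 transcripts, with 1 point for each mouse and lines for the mean ± SD of 5 control or 5 cKOt mice; each axis starts at 0. Cyp24a1 peaks at ZT8 in both genotypes, the Cyp27b1 line of cKOt mice lies under that of control mice, Vdr dips to 267 ± 12.8 CPM at ZT12 in control mice, and Trpv5 is higher in cKOt mice throughout.

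Rhythms were described with 5 models of a 24 h wave, in which a transcript is rhythmic in no genotype (model 1), only in control mice (model 2), only in cKOt mice (model 3), in both alike (model 4), or in both but differently (model 5), and with no test. Cyp24a1 fell in model 4 (BIC weight 0.972), with a shared peak at ZT6.36 and a peak-to-trough amplitude of 1.92 on the log2 scale. Among 3924 genes of model 4, whose median amplitude was 0.27, 5 reached that of Cyp24a1, itself included. Vdr fell in model 3 (weight 0.887), its amplitude being 0.39 in cKOt mice, where the peak was at ZT7.35, against 0.14 in control mice. The time-of-day test passed for Vdr in control mice too, whose highest and lowest means lay only 4 h apart, at ZT8 and ZT12.

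Casr fell in model 2 (weight 0.713, amplitude 0.29, peak at ZT0.637 in control mice) and Cubn in model 4 (weight 0.660, just over the limit of 0.65). Trpv5 and S100g fell in model 1, with weights of 0.945 and 0.842. Cyp27b1 stayed unassigned, with 0.585 for model 2 and amplitudes of 1.36 in control mice, with a peak at ZT10.2, and 0.93 in cKOt mice. It was assigned to model 2 at a limit of 0.5, without the high control mouse at ZT0, or without cKOt mouse 4 at ZT16. Without each replicate number in turn, Cyp24a1, Vdr, and Trpv5 kept their model in 5 of 5 fits, S100g in 4, Cubn in 2, and Casr in 1. Calb1 and Lrp2 were also unassigned. Of all genes, 34.0% fell in model 1, 6.25% in model 2, 3.42% in model 3, 25.2% in model 4, and 2.37% in model 5, and 28.7% were unassigned. Thus 3 of 9 members were rhythmic in control mice (models 2, 4, and 5), against 33.9% of all genes, and 3 of 9 in cKOt mice (models 3, 4, and 5), against 31.0%.

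Of 14 other genes of vitamin D metabolism, 6 were lower, 1 was higher, and 7 did not pass, beside 23.2% lower and 26.8% higher over all genes, with a median log2 fold change of -0.079 beside 0.012 over all genes. Cyp27a1, a mitochondrial sterol hydroxylase that can hydroxylate vitamin D, was 47.8 ± 5.34 CPM in the controls against 38.8 ± 3.47 CPM in cKOt mice (-0.29 ± 0.030, adjusted p = 4.92e-12). Rxrg, a retinoid X receptor, was lower (-0.65 ± 0.19, adjusted p = 0.00337) at under 1 CPM, and the far more abundant Rxra, the partner of the vitamin D receptor on DNA, was lower by less (-0.19 ± 0.020, adjusted p = 5.74e-12). Gc, the vitamin D binding protein, was the one higher (0.43 ± 0.099, adjusted p = 2.49e-04), at 18.0 ± 4.77 CPM and 24.6 ± 8.69 CPM. Of the coactivators, Ncoa3 (-0.17 ± 0.031, adjusted p = 8.55e-06) and Snw1 (-0.11 ± 0.023, adjusted p = 5.43e-05) were lower, and Ncoa1 (0.034 ± 0.026), Ncoa2 (-0.0040 ± 0.028), and Med1 (0.015 ± 0.026) did not pass.

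Of 8 receptors for hormones that regulate vitamin D or calcium, 3 were lower, 1 was higher, and 4 did not pass (median -0.019). Of all genes, 50.0% were called, 23.2% lower and 26.8% higher. Ghr, the growth hormone receptor, was 1066 ± 99.1 CPM in the controls against 806 ± 81.2 CPM in cKOt mice (-0.42 ± 0.020, adjusted p = 3.45e-25). Pth1r, the parathyroid hormone receptor of the proximal tubule, through which Cyp27b1 is induced, was lower (-0.22 ± 0.024, adjusted p = 2.50e-11). Calcr, the calcitonin receptor, was higher (0.55 ± 0.15, adjusted p = 0.00146) at under 1 CPM in both genotypes. Kl (0.0012 ± 0.027) did not pass, and Fgfr4 was slightly lower (-0.067 ± 0.024).

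Of 14 further genes of distal transcellular calcium transport, 6 were higher, 2 were lower, and 6 did not pass, with a median of 0.035. The share called was close to that of all genes (50.0%, made up of 26.8% higher and 23.2% lower). Slc8a1, the basolateral exchanger NCX1, was 197 ± 37.8 CPM in the controls against 290.5 ± 72.7 CPM in cKOt mice (0.54 ± 0.064, adjusted p = 2.22e-10). S100a10, which helps bring TRPV5 to the membrane, was higher (0.48 ± 0.032, adjusted p = 2.38e-19), whereas its partner Anxa2 did not pass (0.053 ± 0.025). Stc1, the hormone stanniocalcin, was higher (0.33 ± 0.069, adjusted p = 5.66e-05), as were the calcium pump Atp2b4 (0.30 ± 0.042) and Trpv6 (0.24 ± 0.090), the channel most like TRPV5. Trpv6 was close to the filter limit, at 1.22 ± 0.291 CPM in control mice and 1.425 ± 0.335 CPM in cKOt mice. The more abundant pump Atp2b1 was slightly lower (-0.074 ± 0.020), as was Klk1 (-0.14 ± 0.040). Pvalb of this list is also a distal convoluted tubule marker, and Rab11a is also in the list of megalin and cubilin partners.

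Of 9 retained genes of paracellular calcium transport, 7 were higher, 1 was lower, and 1 did not pass, with a median of 0.12. Of all genes, 50.0% were called, 26.8% higher and 23.2% lower. Cldn14 did not pass the filter on low values. Cldn10, a claudin counted here over all its transcripts, was higher (0.25 ± 0.029, adjusted p = 9.70e-11). It was the only one of the 9 with an interaction (adjusted p = 7.39e-06). Kcnj1 (ROMK), which recycles potassium into the lumen and so maintains the voltage that drives calcium, was higher (0.24 ± 0.031, adjusted p = 3.48e-09), as was Cldn19 (0.22 ± 0.037, adjusted p = 1.73e-06), which pairs with Cldn16 (0.12 ± 0.041). Cldn12 was lower (-0.12 ± 0.021). Slc12a1, Cldn16, and Kcnj1 also stand among the thick ascending limb markers above, so both counts share these genes.

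Of 14 genes that act with megalin and cubilin, 5 were higher, 1 was lower, and 8 did not pass, with a median of 0.016. Of all genes, 50.0% were called, 26.8% higher and 23.2% lower. Fcgrt, the neonatal Fc receptor, was lower (-0.29 ± 0.028, adjusted p = 8.77e-13), and Amn (amnionless), which brings cubilin to the membrane, was higher (0.22 ± 0.032, adjusted p = 5.82e-08), as was the adaptor Gipc1 (0.14 ± 0.034, adjusted p = 4.13e-04). The adaptor Dab2 (0.017 ± 0.031), the chaperone Lrpap1 (-0.019 ± 0.019), and the chloride exchanger Clcn5 (0.018 ± 0.028) did not pass. Of the 14 core clock and output genes measured as a reference, 6 were higher, 6 were lower, and 12 had an interaction. Over all genes these shares were 26.8%, 23.2%, and 3.08%. The largest differences over the day in this list were those of Npas2 (3.45 ± 0.10), Nr1d2 (-1.99 ± 0.058), and Cry1 (1.56 ± 0.044).

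**Figure D4:**
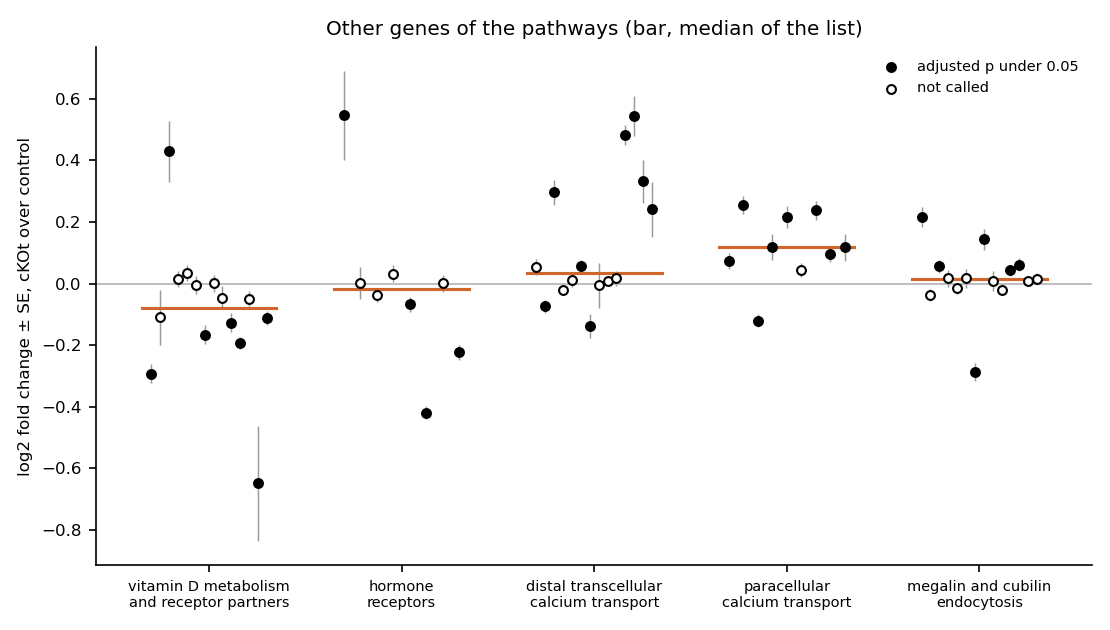
Log2 fold change over the day (± SE) of each retained gene in the 5 pathway lists, filled where adjusted p is under 0.05, with a bar at the median of each list. Medians run from -0.079 for vitamin D metabolism and receptor partners to 0.12 for paracellular transport, and Slc8a1 (0.54) and S100a10 (0.48) stand highest among the distal transport genes.

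Beside the proximal members, 3 of 8 proximal tubule markers were higher in cKOt mice and 5 were lower (median -0.22), at 8201 to 12380.0 CPM (control) and 7070.0 to 12340.0 CPM (cKOt) in sum, from Miox (-0.74 ± 0.042) to Slc5a12 (0.30 ± 0.036). Lower in cKOt mice were 5 of 5 endothelial markers (median -0.099), 4 of 5 fibroblast markers (-0.20; 50.4 to 212 CPM (control) and 70.4 to 182 CPM (cKOt) in sum), 4 of 5 macrophage markers (-0.22; 60.1 to 109 CPM (control) and 67.0 to 108 CPM (cKOt)), and 3 of 3 retained T and B cell markers (-0.51; 1.43 to 4.44 CPM (control) and 1.01 to 2.37 CPM (cKOt)). Of 5 intercalated cell markers, 4 were higher and 1 lower (0.18; 170.3 to 219 CPM (control) and 186 to 234 CPM (cKOt)), of 4 podocyte markers 1 was higher (0.0030), and of 5 tubular injury markers 1 was higher and 2 lower (-0.12; 476 to 838 CPM (control) and 462 to 997 CPM (cKOt)). Over all genes, 23.2% were called lower and 26.8% higher. The part of these markers in the differences of Cyp27b1, Cyp24a1, and Lrp2 was not tested.

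Some members also varied together between mice of the same group, with 5 of 36 pairs past the test by Pearson's r and 4 by Spearman's rho, none of them with Cyp27b1 or Casr. Each mouse was expressed as its deviation in log2 CPM from the mean of its group of 5, and 36 pairs of members were compared over 60 mice, by permutation of the deviations within groups (100000 resamples, two-sided, Benjamini-Hochberg over 36 pairs). The deviations of Lrp2 and Cubn moved together (Pearson r = 0.810, Spearman rho = 0.818, permutation p = 1e-05 for each, the smallest the resamples can give, adjusted p = 0.00012 for each). Cubn had the highest r with Lrp2 of all 15545 other genes, and the reverse held too. All values come from the same libraries. The deviations were not adjusted for RUVs factors or batch, so variation shared by libraries remains in these correlations and p-values.

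The distal calcium genes formed a second such group. For Trpv5 and Calb1, r was 0.767 and rho 0.757 (permutation p = 1e-05 and adjusted p = 0.00012 for each). For Calb1 and S100g, r was 0.680 and rho 0.672 (permutation p = 1e-05, adjusted p = 0.00012 for each). For Trpv5 and S100g, r was 0.549 (permutation p = 2e-05, adjusted p = 0.00018) and rho 0.538 (permutation p = 5e-05, adjusted p = 0.00045). Without the 2 mice farthest from the median of the gene named first, r was 0.766, 0.642, and 0.492 in this order, and 0.780 for Lrp2 and Cubn.

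In control and in cKOt mice alone (n = 30), r was 0.740 and 0.90 for Lrp2 and Cubn, 0.702 and 0.842 for Trpv5 and Calb1, 0.776 and 0.601 for Calb1 and S100g, and 0.619 and 0.472 for Trpv5 and S100g. Within the 6 sample-table batches, the 4 pairs ran from 0.159, for Trpv5 and S100g, to 0.929, for Trpv5 and Calb1. Of 15545 genes, Calb1 had the highest r with Trpv5 and with S100g, whereas in reverse 2 genes had an r with Calb1 at least that of Trpv5 and 4 at least that of S100g, and for Trpv5 with S100g the counts were 5 and 8, these members included. The median r over all genes lay between -0.0151 and -0.00395 for Lrp2, Cubn, Trpv5, S100g, and Calb1.

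Cyp24a1 and Vdr had r = 0.430 (permutation p = 0.00411, adjusted p = 0.0296) and rho = 0.356 (permutation p = 0.0150, adjusted p = 0.0900), so that only the first passed. Within batches r ran from 0.0719 to 0.666. It was 0.625 in control mice alone and 0.306 in cKOt mice alone. Without the mice farthest from the median of Cyp24a1, r was 0.355. Of 15545 genes, 59 had an r with Cyp24a1 at least that of Vdr, Vdr included. In reverse, 174 genes had an r with Vdr at least that of Cyp24a1, Cyp24a1 included, so this pair did not stand out among all genes as the distal pairs did. The enzymes Cyp24a1 and Cyp27b1 gave r = -0.0776 and rho = -0.0321 (permutation p = 0.612 and 0.828; adjusted p = 0.757 and 0.855). The remaining 30 pairs did not pass.

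**Figure D5:**
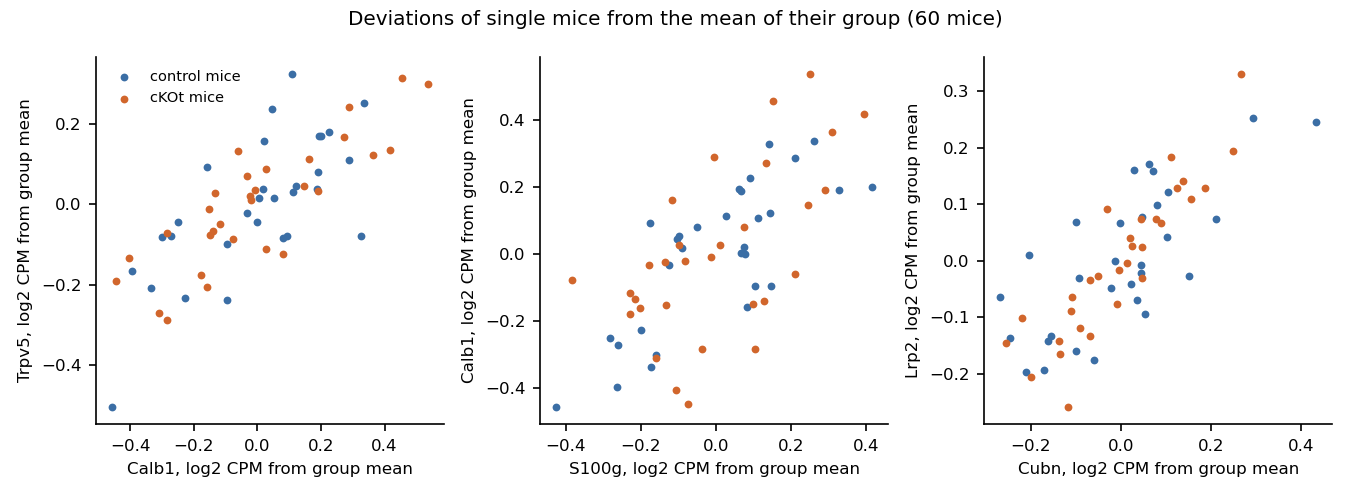
Deviation of each of 60 mice from the mean of its group of 5, in log2 CPM, for Trpv5 against Calb1, Calb1 against S100g, and Lrp2 against Cubn. Pearson r was 0.767, 0.680, and 0.810, and the points of both genotypes rise along the diagonal.

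Across the 12 group means, the genes whose pattern was most like each member were searched among 10865 genes with a mean of at least 5 CPM, as a description. For Calb1 they were Slc8a1 (r = 0.956), Kif3a (r = 0.956), and Pycard (r = 0.90). For Trpv5 they were Apoc3 (r = 0.974), Malrd1 (r = 0.974), and Cbr1 (r = 0.960), and for S100g Oxgr1 (r = 0.956), Pygl (r = 0.939), and Bex3 (r = 0.938). For Cyp27b1 they were Coq10b (r = 0.909), Tent4a (r = 0.906), and Alas1 (r = 0.899), for Cyp24a1 Klf11 (r = 0.945), Zfp280b (r = 0.908), and H3f3b (r = 0.895), and for Vdr Lrsam1 (r = 0.886), Thtpa (r = 0.865), and Zfp870 (r = 0.845). For Lrp2 they were Cpne4 (r = 0.852), Exd2 (r = 0.833), and Pwp1 (r = 0.832), for Cubn Tor1aip1 (r = 0.944), Nt5dc1 (r = 0.931), and Nsmce1 (r = 0.925), and for Casr Clu (r = 0.944), Col18a1 (r = 0.942), and Prmt2 (r = 0.941).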

How the data were processed

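Kidney RNA of 60 mice in 12 groups of 5 was sequenced by the authors from stranded poly(A) libraries as single reads of up to 150 cycles, trimmed with cutadapt (version 1.8) and aligned to GRCm38 with STAR (version 2.5.3a), and the deposited values are counts of reads per Ensembl gene from HTSeq (version 0.9.1), not normalized. The strand setting of the counting is not given in the sources used here. The authors kept 5 of 6 mice of a group by RNA quality and clustering, and cKOt replicate 4 at ZT16 is marked for removal in their sample table. Lines of the counter that name no gene (7.17% to 9.15% of uniquely aligned reads outside features in control and 7.80% to 10.6% in cKOt libraries) were left out.

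Genes that reached 1 CPM in any of the samples were tested with edgeR (version 4.0.16; R version 4.3.3; TMM; quasi-likelihood F test) in 1 fit over 60 samples with 12 groups and 2 RUVs factors, and p-values were adjusted by Benjamini-Hochberg over 15546 genes with a threshold of 0.05. SE is the log2 fold change divided by the square root of F. Rhythm models followed dryR (period of 24 h, BIC weight of at least 0.65, logCPM with a prior count of 2). RUVs and the model selection were written anew. On simulated counts, 80% of genes changed 1.2-fold and 100% of those changed 1.5-fold were recovered in the difference over the day. For rhythms with an amplitude of 0.5 and 1 in the simulation, recovery was 38% and 69% for the interaction and 58% and 89% for time of day in control mice, so a test of this kind that was not passed carries less weight. limma (version 3.58.1) and DESeq2 (version 1.42.0) served as alternatives.

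Genotype, time, and replicate came from the labels. Symbols came from GENCODE release M21, which matched 55154 of 55335 IDs. Of 120 replicate pairs none was identical. The members, lists, and tests were chosen with earlier results of these data known. Named genes were the 9 members, Arntl, up to 3 genes of each list with the largest called difference, and the 3 genes most like each member; others in a list were named after their values were seen. Nothing states that the mice of a group were caged or processed apart, so p-values measure the spread between these samples.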

Additional observations from a re-analysis of the deposited data

Results flagged for a closer look

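In 108 groups of 5 mice (9 transcripts in 12 groups), 5 held a mouse whose gap to the nearest other exceeded 0.71 of the group's range, and chance flags about 1 in 20 groups. Cyp24a1 was 147 CPM in 1 control mouse at ZT0 (replicate 5), where the next was 48.5 CPM. It was 318 CPM in 1 cKOt mouse at ZT8 (replicate 2), where the next was 126 CPM. Cyp27b1 was 8.15 CPM in 1 control mouse at ZT0 (replicate 3), where the next was 3.87 CPM. S100g was 177 CPM in 1 control mouse at ZT4 (replicate 5), where the other 4 had at least 251 CPM, and 407 CPM in 1 cKOt mouse at ZT12 (replicate 3), where the next was 307 CPM. The genotype difference of Vdr varied between the time points by the interaction test (adjusted p = 0.0208, edgeR).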

How the results depend on the processing

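Cyp27b1 had 11 to 224 counts per library, the fewest of the 9 transcripts, and a coefficient of variation of 24.8% to 71.3% between mice of a group. Among 19 alternatives (14 planned, 5 that leave out 1 mouse each chosen after seeing the data), the calls over the day of Cyp27b1, Vdr, Trpv5, Calb1, and S100g held in all, those of Casr, Cyp24a1, and Lrp2 in 18, 17, and 16, and Cubn was called in 2. Members called over the day numbered 6 to 9 against 8, and genes 6380 to 7781 against 7778. Members with an interaction numbered 0 without RUVs factors and without cKOt mouse 3 at ZT12, 2 without control mouse 3 at ZT0, and 0 to 1 without each replicate number in turn, against 1. Genes with an interaction numbered 263 without RUVs factors and 312 with the sample-table batch in their place, and 233 to 503 with 1 replicate number or 1 mouse left out, against 479. Members with a time-of-day effect in control mice numbered 2 to 4 without each replicate number, and genes with one in cKOt mice 2608 to 4155 with 1 replicate number or 1 mouse left out, against 4142. Members rhythmic in control mice numbered 1 at a BIC weight of at least 0.8 and 1 to 3 without each replicate number, against 3. Differences close to 0 changed sign: Vdr at ZT16 was 0.0091 without RUVs factors and 0.0095 with batch, and -0.041 to 0.030 without each replicate number, Vdr at ZT0 -0.010 to 0.11, Vdr at ZT8 -2.60e-05 to 0.17, Cyp27b1 at ZT0 -0.42 to 0.22 and 0.44 without control mouse 3, and Cyp27b1 at ZT20 -0.52 to 0.10. The causes were not tested.

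Replicate numbers are shared between groups but do not pair the mice. Deviations from group means correlated by 0.0043 within a number (330 pairs) and by -0.0010 between numbers (1320 pairs). For the sample-table batches, they correlated by 0.036 within a batch (270 pairs) and by -0.0070 between batches (1380 pairs). With the replicate block, 7734 genes were called over the day, 8 members were called over the day and 16 instead of 17 at single time points, and only the difference of Cyp27b1 at ZT16 was lost.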
